A study of Homo sapiens with 6 samples.

Results

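Genes for the subunits of Mediator and of RNA polymerases I, II and III were followed in AsPC-1, an established line of human pancreatic cancer cells. RNA was taken 48 h after cells received a control siRNA (siControl) or an siRNA that targets VCPIP1 (siVCPIP1), which encodes a deubiquitinase. Members were all symbols of the expression table made of MED and a number, or of POLR1, POLR2 or POLR3 and a subunit letter. The rule reads names alone, although it was set with earlier results of these data known. Of the 15832 symbols listed, 61 met the rule, 29 for Mediator and 32 for the polymerases. Each group had 3 libraries, and both groups were the same unmodified line apart from the transfected siRNA. The labels do not state whether libraries of a group were separate cultures, so the spread behind each p-value is that of these libraries and may be technical. The labels describe no rescue, so effects of this siRNA on other targets cannot be told apart from those of VCPIP1 loss.

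Mediator carries signals from DNA-bound transcription factors to RNA polymerase II. It is built from a head and a middle module that contact the polymerase, a tail that contacts the factors, the scaffold MED14 that joins them, and a kinase module that binds reversibly. RNA polymerase I makes the ribosomal RNA precursor, RNA polymerase II makes messenger RNA, and RNA polymerase III makes transfer RNA and other short RNAs. In each polymerase the largest and the second largest subunits form the active site, and a set of small subunits is shared between the enzymes.

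Values are TPM, a share of transcripts scaled for gene length, so levels of different genes can be compared within a library. VCPIP1 lay at 2.93, 3.06 and 2.24 TPM in siControl and at 0.12, 0.11 and 0.27 TPM in siVCPIP1 (limma, adjusted p = 2.0e-05). The groups differed across the whole table, with a median TPM over all genes of 6.18 to 7.44 in siControl and 1.24 to 2.26 in siVCPIP1. Genes with a transcript GC content under 45% held 14.4% ± 1.09 of all TPM in the control group and 4.62% ± 1.16 after the knockdown (SD over 3 libraries). The keratins KRT8, KRT18 and KRT19 lay at 3908.83 TPM or more in every library and KRT7, of the same epithelial list, at 2.13 to 7.89 TPM, whereas the epithelial genes EPCAM and CDH1 went from at least 157.3 and 27.5 TPM in siControl to at most 11.69 and 1.33 TPM in siVCPIP1. Listed fibroblast, endothelial and acinar markers lay at 1.27 TPM or less in every library, PTPRC lay at 0.20 to 0.66 TPM, and CD68, a lysosomal protein gene, was the leukocyte marker above that, at 120.46 to 157.56 TPM. No mitochondrially encoded gene is listed under an MT- symbol, so that sign of RNA quality was not analysed here.

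All 61 members reached a mean of 1 TPM across the 6 libraries and were tested with limma on log2(TPM + 1) values. Of these, 38 fell in siVCPIP1, 9 rose and 14 were not called at an adjusted p of 0.05. Over all 10966 genes tested, 66% were called lower and 15% higher. The count of members that rose was 5 without siVCPIP1 replicate 1. The median change of the members was -0.85 on the log2(TPM + 1) scale, beside -1.12 for all genes tested. The groups did not overlap in 52 of the 61 members, beside 86% of all genes tested. In bulk RNA, fewer cells of a type and less RNA per cell cannot be told apart. Together the members held 2620.2 ± 90.4 TPM in siControl and, in siVCPIP1, 2798 ± 84.5 TPM (SD over 3 libraries), and the falls of many members stood beside rises of a few abundant ones. By gene models of GENCODE 29, 24 of the 61 overlap another protein-coding gene, 21 of them on the opposite strand. Overlaps with non-coding genes were not counted. The strand setting of the counts is not given in the sources used here, so reads of overlapping partners cannot be told apart.

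**Figure D1:**
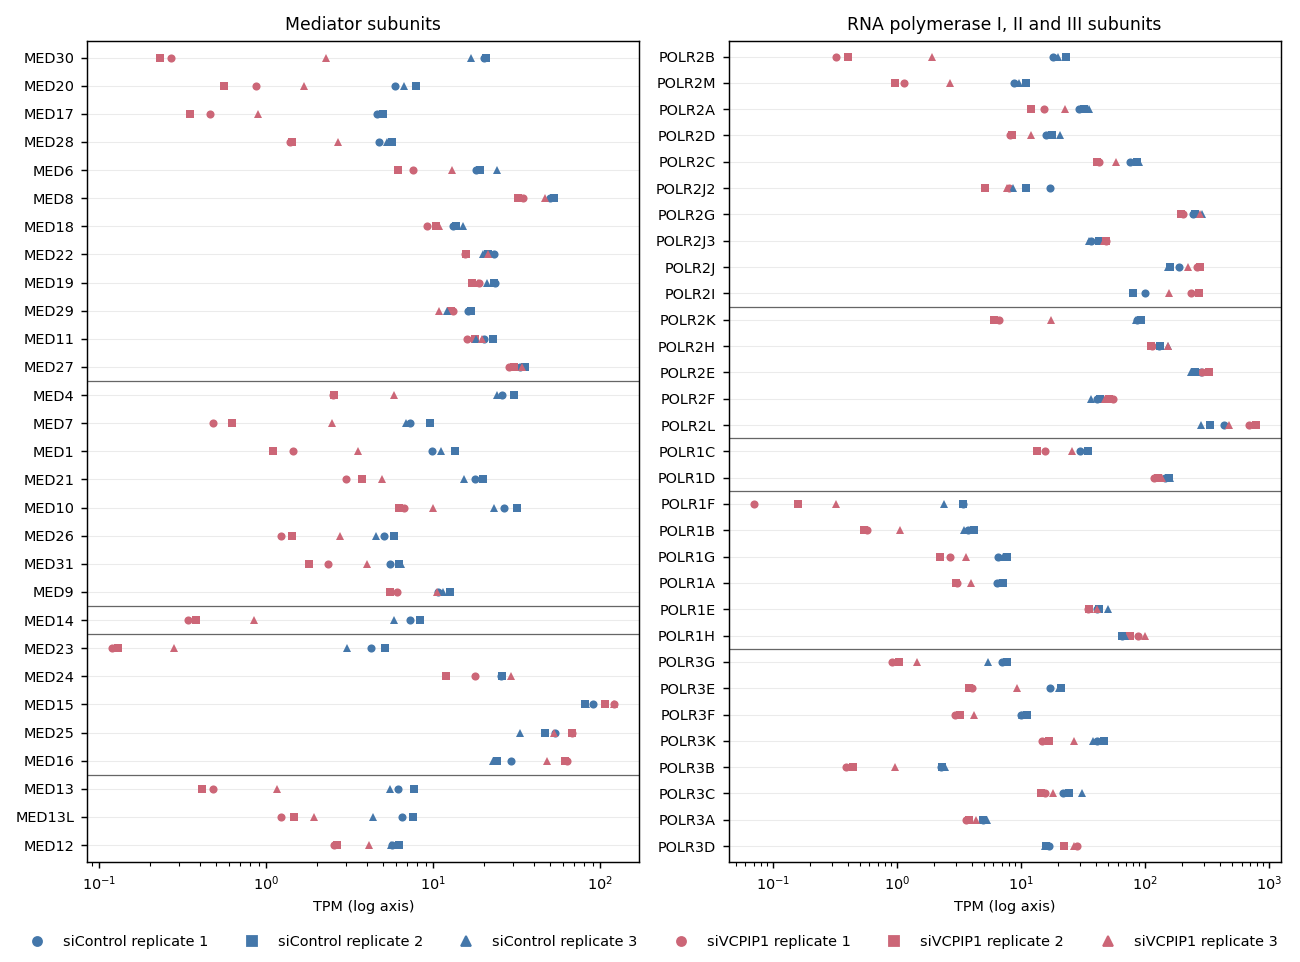
TPM of the Mediator subunit genes (left) and RNA polymerase subunit genes (right) in the 6 libraries, on a log axis. Lines separate the roles, from top to bottom head, middle, scaffold, tail and kinase module on the left, and Pol II-specific, shared by all 3, shared by I and III, Pol I-specific and Pol III-specific on the right. The red points of siVCPIP1 lie left of the blue siControl points for the 38 genes that fell, and triangles of siVCPIP1 replicate 3 usually lie nearest to siControl.

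The direction of the members depended on how the libraries were scaled. Median-of-ratios scaling aligns the centres of the libraries, and put 20 members lower and 32 higher, beside 42.7% and 42.3% of all genes. Quantile normalization, which makes the distributions equal, gave 16 lower and 31 higher, beside 38.8% and 42.2%. Removal of each library's trend on transcript GC content and length, the GC-length correction, gave 10 lower and 30 higher, beside 31.7% and 37.2%. The member medians were then 0.41, 0.36 and 0.29, and those of all genes -0.02, 0.04 and 0.07. VCPIP1 itself lay at -1.68 as deposited, -1.11 and -0.55 under the scalings and 0.27 without a call after GC-length correction (limma, adjusted p = 0.065). In the text, rose and fell refer to TPM as deposited unless a scaling is named.

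The call was the same as deposited, under both scalings, under the GC-length correction, and with a pseudocount of 0.1 TPM with and without that correction, for 10 members. MED14, MED30 and POLR2B were lower in all of these fits. MED15, MED16, POLR1H, POLR2F, POLR2I, POLR2J and POLR3D were higher in all of them. Over all genes, 17.4% kept a lower call in this way and 10.4% a higher one. Of the 47 members called as deposited, 43 had siVCPIP1 replicate 3 nearer to the siControl mean than the other siVCPIP1 libraries, as did 92.2% of all called genes.

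**Figure D2:**
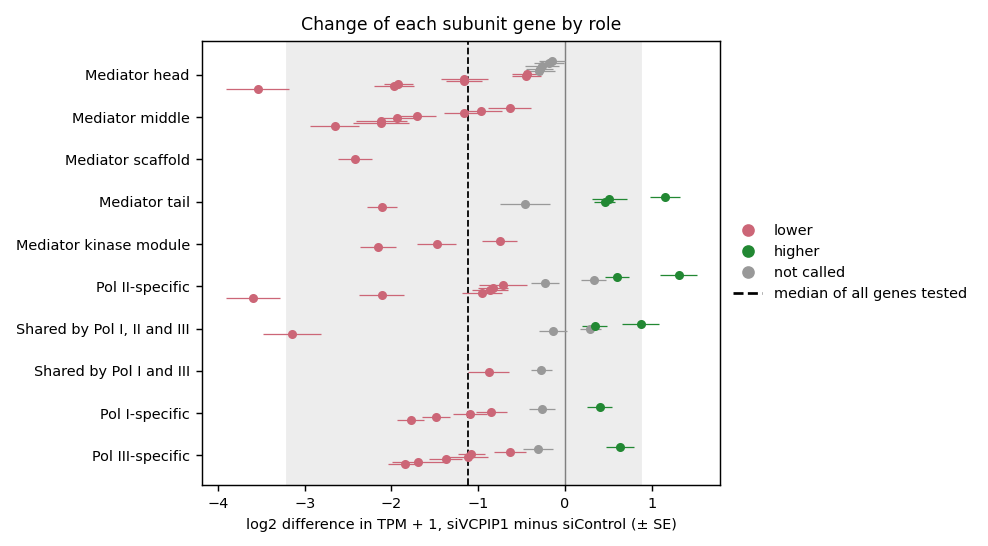
Change of the members by role, as the log2 difference in TPM + 1 with its standard error from limma. The grey band spans 5% to 95% of all genes tested (-3.20 to 0.88) and the dashed line is their median (-1.12). All 8 middle subunits lie left of 0, and 3 of the 5 tail subunits lie right of 0 and were called.

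To show the regulatory sequence of genes that moved in opposite directions, the 250 bases before the RefSeq start (GRCh38.p14) are printed for the members with the largest called falls and rises among those whose mean reached 5 TPM and whose promoter entry was used here. POLR2B, with a log2 change of -3.60, starts after chr4:56978646-56978895 (plus strand), and MED4, with -2.66, after chr13:48095105-48095354 (minus strand). MED16, with 1.15, starts after chr19:893188-893437 (minus strand), and POLR2L, with 0.87, after chr11:842530-842779 (minus strand). Capitals mark every match, on either strand, to 5 motifs that were searched. The match of the SP/KLF factors was GGGCGG, and the match of the TATA box was TATAAA. The other motifs searched were those of the ETS, NRF1 and YY1 factors, with letters given in the next paragraph. No matches overlap here.
POLR2B: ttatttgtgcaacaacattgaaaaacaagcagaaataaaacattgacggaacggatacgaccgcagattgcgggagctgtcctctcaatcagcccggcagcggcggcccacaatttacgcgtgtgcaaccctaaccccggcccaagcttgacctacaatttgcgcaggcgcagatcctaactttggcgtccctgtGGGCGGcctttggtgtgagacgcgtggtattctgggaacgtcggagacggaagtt
MED4: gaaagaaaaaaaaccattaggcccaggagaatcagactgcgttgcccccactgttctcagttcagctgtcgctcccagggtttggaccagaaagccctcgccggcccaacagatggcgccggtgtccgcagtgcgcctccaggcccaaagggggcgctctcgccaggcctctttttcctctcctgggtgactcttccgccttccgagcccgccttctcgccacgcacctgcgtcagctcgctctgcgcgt
MED16: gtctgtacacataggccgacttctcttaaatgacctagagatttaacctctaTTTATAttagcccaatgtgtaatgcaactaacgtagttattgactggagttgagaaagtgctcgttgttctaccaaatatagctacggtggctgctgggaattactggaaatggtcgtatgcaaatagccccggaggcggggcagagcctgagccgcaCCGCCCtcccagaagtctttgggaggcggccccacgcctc
POLR2L: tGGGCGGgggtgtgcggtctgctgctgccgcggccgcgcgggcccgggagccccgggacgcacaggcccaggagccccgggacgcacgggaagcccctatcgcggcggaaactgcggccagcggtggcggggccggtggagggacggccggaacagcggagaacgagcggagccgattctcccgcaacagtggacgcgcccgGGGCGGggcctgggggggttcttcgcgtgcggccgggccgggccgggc

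The 4 promoters had a GC content of 54.0%, 62.8%, 50% and 79.2% in the order printed. GGGCGG occurred once in the POLR2B and MED16 windows and on 2 sites in that of POLR2L, and TATAAA once in that of MED16. The 3 other motifs had no match in these windows. Entries were found for 44 of the 61 members. GGGCGG was present in 28 of them (63.6%), beside 42.5% of 34941 promoters of the same length, which include those of non-coding genes. The ETS motif was searched as CCGGAAG and was present in 12 member promoters (27.3%, beside 8.48% of all). The NRF1 motif was searched as GCATGCGC and was present in 3 member promoters (6.82%, beside 2.60% of all). The YY1 motif was searched as AAGATGG and was present in 3 (6.82%, beside 3.70% of all). The TATA box motif given above was present in 3 as well (6.82%, beside 10.8% of all). Across these 44 members, promoter GC content and the log2 change had a Pearson r of 0.10 (Spearman's rho 0.05), given as a description.

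Of the 12 head subunits, which contact RNA polymerase II, 7 fell and 0 rose, beside 66% and 15% of all genes tested. Their median change was -0.44, beside -1.12 for all genes. Median-of-ratios scaling turned the balance to 3 lower and 7 higher, beside 42.7% and 42.3% of all genes. Quantile normalization also gave 3 and 7, beside 38.8% and 42.2%, and GC-length correction 1 and 7, beside 31.7% and 37.2%. MED30, a head subunit found in animals, lay at 20.10, 20.69 and 16.81 TPM in siControl and at 0.27, 0.23 and 2.29 TPM in siVCPIP1. The siVCPIP1 libraries lay far below the siControl range, with replicate 3 above the other siVCPIP1 libraries. MED30 fell by 3.54 (SE 0.36, limma, adjusted p = 3.3e-05). Its change was -2.68 after median-of-ratios scaling, -2.21 after quantile normalization and -1.78 after GC-length correction. MED17, the central subunit of the head, lay at 4.63, 5 and 5 TPM in siControl and at 0.46, 0.35 and 0.89 TPM in siVCPIP1. MED20, which pairs with MED18, lay at 5.91, 7.87 and 6.70 TPM and at 0.87, 0.56 and 1.69 TPM. Neither gene's groups overlapped. MED17 fell by 1.92 and MED20 by 1.97, and neither had a call after GC-length correction (0.12 and -0.19, adjusted p = 0.37 and 0.15 in limma), though MED20 was called lower when that correction used a pseudocount of 0.1 TPM (-0.61, adjusted p = 0.022). MED6, MED8, MED18 and MED28 fell by 0.43 to 1.16, and were called higher after GC-length correction (0.49 to 1.28). MED8 and MED18 lost their lower call when any library other than siVCPIP1 replicate 3 was left out (limma, adjusted p from 0.070 to 0.14 and from 0.078 to 0.17). MED11, MED19, MED22, MED27 and MED29 were not called as deposited, with changes of -0.30 to -0.15, and MED19 and MED22 were called lower without siVCPIP1 replicate 3 (-0.31 and -0.44). All 5 were called higher after median-of-ratios scaling (1.01 to 1.19) and quantile normalization (0.70 to 1.05). After GC-length correction MED22, MED27 and MED29 were called higher (0.62, 0.57 and 0.69), and MED11 and MED19 were not called. Among these last 5, siVCPIP1 means of 12.3 to 31.1 TPM stood beside siControl means of 15.02 to 34.5 TPM.

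All 8 middle subunits fell, beside 66% of all genes tested, with a median of -1.82. Their median transcript GC content was 44.1%, and of all genes tested with a GC content under 45%, 97.4% fell. All 8 middle subunits were without overlap between the groups, as were 86% of all genes tested. Median-of-ratios scaling left 5 of them lower and put 1 higher, beside 42.7% and 42.3% of all genes. Quantile normalization split them 5 and 3, beside 38.8% and 42.2%, and GC-length correction 2 and 2, beside 31.7% and 37.2%. MED4 lay at 25.75, 30.61 and 24.06 TPM in siControl and at 2.50, 2.56 and 5.80 TPM in siVCPIP1, and thus kept 13.5% of its siControl mean. MED1, the subunit through which nuclear receptors bind, lay at 9.85, 13.42 and 11.08 TPM and at 1.45, 1.09 and 3.54 TPM. MED7, which pairs with MED21, lay at 7.30, 9.62 and 6.85 TPM and at 0.48, 0.62 and 2.48 TPM. In all 3 genes replicate 3 was the highest siVCPIP1 library. The changes were -2.66 for MED4, -2.12 for MED1 and -2.12 for MED7 (SE 0.28, 0.30 and 0.32). After GC-length correction MED1 kept its call (-0.42, limma, adjusted p = 0.043), though not with a pseudocount of 0.1 TPM (-0.38, adjusted p = 0.14). MED4 and MED7 had no call after the correction (-0.23 and 0.30, limma, adjusted p = 0.082 and 0.080). MED26, which recruits elongation factors, was chosen after its values were seen because it fell by 1.16 despite a transcript GC content of 60.7%. It lay at 5.05, 5.78 and 4.53 TPM in siControl and at 1.22, 1.42 and 2.75 TPM in siVCPIP1, below and without overlap. Its change was -1.05 after GC-length correction (limma, adjusted p = 0.00059), -0.16 after median-of-ratios scaling without a call, and 0.43 after quantile normalization (adjusted p = 0.0065). MED9, MED10, MED21 and MED31 fell by 0.63 to 1.93. After GC-length correction MED21 and MED31 were called higher (0.51 and 1.36), and MED9 and MED10 were not called (-0.17 and -0.05). The call of MED9 was lost when any library other than siVCPIP1 replicate 3 was left out (limma, adjusted p from 0.074 to 0.14), so 7 of the 8 middle subunits kept their call in all 6 such fits.

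MED14, the scaffold of the complex (chromosome X, 40648306 to 40735858, minus strand, GRCh38, 31 exons), lay at 7.24, 8.30 and 5.84 TPM in siControl and at 0.34, 0.38 and 0.85 TPM in siVCPIP1. It kept 7.34% of its siControl mean, and no siVCPIP1 library came near the siControl range. Its change was -2.42 (SE 0.19, limma, adjusted p = 2.0e-05), -1.59 after median-of-ratios scaling, -0.95 after quantile normalization and -0.47 after GC-length correction (adjusted p = 0.0029).

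The tail, which binds transcription factors, held genes that moved in opposite directions. Of its 5 members MED15, MED16 and MED25 rose, MED23 fell and MED24 was not called (-0.46, limma, adjusted p = 0.16). Over all genes tested, 15% rose and 66% fell. MED24 was called lower without siVCPIP1 replicate 3 (-0.78, limma, adjusted p = 6.6e-05). It was called higher after median-of-ratios scaling (0.85) and quantile normalization (0.63), and had no call after GC-length correction (0.06). MED16 (chromosome 19, 867630 to 893218, minus strand, GRCh38) lay at 29.32, 24.02 and 22.66 TPM in siControl and at 63.50, 61.51 and 47.67 TPM in siVCPIP1. All siVCPIP1 libraries stood above all siControl libraries, a 2.27-fold higher mean. MED16 rose by 1.15 (SE 0.17, limma, adjusted p = 0.00028), and by 2.49, 1.98 and 0.88 after median-of-ratios scaling, quantile normalization and GC-length correction. MED15, a target of SREBP factors, lay at 90.63, 80.92 and 82.32 TPM and at 120.76, 107.34 and 121.41 TPM. It rose by 0.46 without overlap, a call lost without siVCPIP1 replicate 1 (limma, adjusted p = 0.056). MED25 lay at 53.24, 46.67 and 32.95 TPM and at 68.07, 67.89 and 52.67 TPM, and its groups overlapped. Its rise of 0.51 (limma, adjusted p = 0.042) lost its call without siControl replicate 2 or 3 or siVCPIP1 replicate 1 or 2 (adjusted p from 0.069 to 0.14), where the change without siControl replicate 3 was 0.32, and also after GC-length correction (0.10, adjusted p = 0.53). MED23, a subunit bound by the factor ELK1, lay at 4.26, 5.17 and 3.03 TPM and at 0.12, 0.13 and 0.28 TPM. It kept 4.25% of its siControl mean, with no overlap. MED23 fell by 2.11, lay at -1.48 and -0.89 under the scalings, and at -0.02 after GC-length correction (limma, adjusted p = 0.90) but at -1.11 when that correction was run with a pseudocount of 0.1 TPM (adjusted p = 0.0010). The summed level of the tail was 184.0 ± 18.2 TPM in siControl and 256.7 ± 11.7 TPM in siVCPIP1, whereas that of the middle module was 113.5 ± 14.3 and 30.3 ± 11.9 TPM (SD, n = 3 each). A test of that difference was not run.

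All 3 listed subunits of the kinase module fell, beside 66% of all genes tested. MED13, which links the module to the rest of Mediator, lay at 6.11, 7.67 and 5.48 TPM in siControl and at 0.48, 0.41 and 1.16 TPM in siVCPIP1. Its paralog MED13L lay at 6.54, 7.61 and 4.36 TPM and at 1.22, 1.46 and 1.94 TPM. MED12, which activates the module's kinase, lay at 5.69, 6.20 and 5.60 TPM and at 2.55, 2.67 and 4.12 TPM. The siControl levels of the 3 genes lay within 1.10-fold of each other, and those in siVCPIP1 spread over 4.56-fold. The changes were -2.16, -1.48 and -0.75 (SE 0.21, 0.22 and 0.20, limma, adjusted p = 2.7e-05, 0.00026 and 0.0073), with no overlap in any. Median-of-ratios scaling kept MED13 and MED13L lower (-1.31 and -0.47) and put MED12 higher (0.35). Quantile normalization put MED13 at -0.67, MED13L at 0.13 without a call and MED12 at 0.85. The GC-length correction left MED13 and MED13L without a call (-0.23 and 0.10), and put MED12 higher at 0.24 (limma, adjusted p = 0.048). That call of MED12 was lost with a pseudocount of 0.1 TPM (0.31, limma, adjusted p = 0.053). The module's cyclin gene CCNC fell from a mean of 17.7 ± 3.74 TPM to 0.887 ± 0.616 TPM. Its kinase gene CDK8 fell from 11.9 ± 2.62 TPM to 0.780 ± 0.476 TPM (SD over 3 libraries). Both were lower under both scalings and after GC-length correction, where they lay at -0.91 and -0.88, whereas the alternative kinase CDK19 fell by 1.83, was lower under both scalings, and lay at 0.14 without a call after the correction (limma, adjusted p = 0.36).

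Of the 10 genes counted as specific to RNA polymerase II, 6 fell and 2 rose, beside 66% and 15% of all genes tested. Their median change was -0.77, beside -1.12 for all genes. With median-of-ratios scaling 2 were lower and 7 higher, beside 42.7% and 42.3% of all genes. Quantile normalization gave 3 and 5, beside 38.8% and 42.2%, and GC-length correction 2 and 5, beside 31.7% and 37.2%. POLR2B, the second largest subunit (chromosome 4, 56977722 to 57031168, plus strand, GRCh38, 26 exons), lay at 17.95, 23.10 and 19.81 TPM in siControl and at 0.32, 0.40 and 1.90 TPM in siVCPIP1. It kept 4.30% of its siControl mean, and the siVCPIP1 library with the most POLR2B, replicate 3, still lay far below siControl. The change of -3.60 (SE 0.31, limma, adjusted p = 2.0e-05) was the largest fall of the 61 members on the log2(TPM + 1) scale, while MED23 kept a smaller share of its siControl mean and MED30 fell more with a pseudocount of 0.1 TPM (-4.86 beside -4.76 for POLR2B). The change of POLR2B was -2.69 after median-of-ratios scaling, -2.24 after quantile normalization and -1.44 after GC-length correction. POLR2B overlaps NOA1 over 1102 bases and IGFBP7 over 396 bases, both on the opposite strand. POLR2A, the largest subunit, whose C-terminal tail of repeats is phosphorylated during transcription, lay at 29.46, 31.99 and 35.54 TPM and at 15.25, 12.02 and 22.72 TPM. Its groups did not overlap, and it kept 51.5% of its mean. POLR2A fell by 0.96 (SE 0.23, limma, adjusted p = 0.0042). Median-of-ratios scaling put it higher by 0.36 (adjusted p = 0.049 in limma), and it had no call after quantile normalization (0.062) or GC-length correction (-0.09). POLR2M, which holds the polymerase back from the factor TFIIF, lay at 8.84, 11.04 and 9.58 TPM and at 1.13, 0.96 and 2.70 TPM. POLR2M fell by 2.11 and lay at 0.17 after GC-length correction (limma, adjusted p = 0.29), or at 0.52 with a call when that correction used a pseudocount of 0.1 TPM (adjusted p = 0.022). Its locus overlaps GCOM1 on the same strand, so reads of the 2 genes may be split. POLR2C and POLR2D fell by 0.83 and 0.87, and POLR2G was not called (-0.23, limma, adjusted p = 0.20) except without siVCPIP1 replicate 3 (-0.39, adjusted p = 0.0045).

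POLR2I, a small subunit at the jaw of the enzyme (chromosome 19, 36113710 to 36115346, minus strand, GRCh38, 6 exons), lay at 99.30, 79.32 and 80.40 TPM in siControl and at 234.92, 271.12 and 154.56 TPM in siVCPIP1. Every siVCPIP1 library was above every siControl library, and replicate 3 was the lowest of them. POLR2I rose by 1.31 (SE 0.21, limma, adjusted p = 0.00041), by 2.67 and 1.56 under the scalings and by 0.74 after GC-length correction. POLR2I overlaps TBCB on the opposite strand over 1058 bases, and the strand setting of the counts is not given in the sources used here. POLR2J, which pairs with POLR2C during assembly, lay at 186.40, 158.38 and 153.97 TPM and at 262.12, 276.77 and 221.85 TPM, and rose by 0.61 without overlap (SE 0.14, limma, adjusted p = 0.0032). Its near-identical copies lie close by on chromosome 7. POLR2J3 lay at 36.67, 42.67 and 35.45 TPM and at 48.83, 48.84 and 47.01 TPM, and was not called (0.33, limma, adjusted p = 0.055), although it passed without siVCPIP1 replicate 3 (0.35, adjusted p = 0.015). POLR2J2 lay at 17.06, 10.99 and 8.69 TPM and at 7.98, 5.11 and 7.69 TPM. It fell by 0.71 (limma, adjusted p = 0.038), a call lost without siControl replicate 1 or 2 or siVCPIP1 replicate 2 (adjusted p from 0.076 to 0.16). Its change was -0.46 without siControl replicate 1, 0.52 without a call after median-of-ratios scaling, 0.76 with one after quantile normalization, and -1.49 after GC-length correction. How the authors' counting divided reads among the 3 copies is not given in the sources used here, so their separate values are uncertain.

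The small subunits shared by all 3 polymerases moved apart. POLR2K, a zinc-binding subunit, lay at 85.47, 92.61 and 84.81 TPM in siControl and at 6.66, 6.05 and 17.54 TPM in siVCPIP1. POLR2L, likewise a small zinc-binding subunit, lay at 434.21, 334.16 and 284.68 TPM and at 689.08, 777.75 and 476.64 TPM. Both pairs of groups were without overlap, and in each gene siVCPIP1 replicate 3 lay nearest to siControl. POLR2K fell by 3.15 (SE 0.34, limma, adjusted p = 3.9e-05). It lay at -0.62 after GC-length correction (adjusted p = 0.0081 in limma), and at -0.15 without a call when that correction used a pseudocount of 0.1 TPM. POLR2L rose by 0.87 (SE 0.21, limma, adjusted p = 0.0046), and lay at 0.29 without a call after GC-length correction (adjusted p = 0.14). The POLR2K transcript has a GC content of 36.6% and that of POLR2L 60.1%. POLR2L overlaps CD151 on the opposite strand over 2476 bases. POLR2F lay at 40.77, 42.98 and 36.79 TPM and at 54.84, 51.62 and 47.18 TPM, a rise of 0.34 (limma, adjusted p = 0.0496) that lost its call when any library other than siVCPIP1 replicate 3 was left out (adjusted p from 0.083 to 0.21). POLR2E and POLR2H were not called, at 0.29 and -0.14 (limma, adjusted p = 0.054 and 0.44). POLR2E was called higher without siControl replicate 1 or siVCPIP1 replicate 3 (limma, adjusted p from 0.037 to 0.049), and POLR2H lower without siVCPIP1 replicate 3 (-0.29, adjusted p = 0.030). Median-of-ratios scaling put both higher (1.67 and 1.23). Quantile normalization and GC-length correction put POLR2E higher (0.36 and 0.45) and left POLR2H without a call (0.07 and -0.37). The 5 shared genes together made up 873.4 ± 91.2 TPM in siControl and 1149.7 ± 125.0 TPM after the knockdown (SD over 3 libraries). Of the 2 genes shared by RNA polymerases I and III, POLR1C, on which assembly of these enzymes begins, lay at 30.13, 34.97 and 34.44 TPM and at 15.47, 13.50 and 25.72 TPM. It fell by 0.88 (limma, adjusted p = 0.0076) and lay at 0.44 with a call after median-of-ratios scaling (adjusted p = 0.015). Its partner POLR1D was not called as deposited (-0.27, limma, adjusted p = 0.066), and was called lower without siVCPIP1 replicate 3 (-0.32, adjusted p = 0.015). POLR1D was called higher after median-of-ratios scaling (1.10), had no call after quantile normalization (-0.07) and was called lower after GC-length correction (-0.45).

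Of the 6 subunits specific to RNA polymerase I, 4 fell and 1 rose, beside 66% and 15% of all genes tested. The counts became 2 lower and 2 higher with median-of-ratios scaling, beside 42.7% and 42.3% of all genes. They were 1 and 4 with quantile normalization, beside 38.8% and 42.2%, and 1 and 3 with GC-length correction, beside 31.7% and 37.2%. POLR1F, which binds the initiation factor RRN3, lay at 3.41, 3.43 and 2.38 TPM in siControl and at 0.07, 0.16 and 0.32 TPM in siVCPIP1. POLR1B, the second largest subunit, lay at 3.71, 4.16 and 3.47 TPM and at 0.57, 0.54 and 1.05 TPM. POLR1A, the largest, lay at 6.46, 7.12 and 6.69 TPM and at 3.05, 2.97 and 3.95 TPM. The 3 genes were lower in every siVCPIP1 library than in any siControl library. Their changes were -1.78, -1.48 and -0.85 (SE 0.15, 0.16 and 0.18, limma, adjusted p = 2.0e-05, 4.3e-05 and 0.0021). POLR1F lay at 0.52, called higher, after GC-length correction (adjusted p = 0.0067 in limma), but lay at -0.35 without a call when that correction used a pseudocount of 0.1 TPM. At levels under 1 TPM the pseudocount of 1 TPM limits a log2 fall. POLR1A lay at 0.28 and 0.76 under the scalings, with a call in quantile normalization, and at 0.23 without a call after GC-length correction (limma, adjusted p = 0.051), while POLR1B lay at -0.66 and -0.04 under the scalings. POLR1G, which binds the enzyme's core with POLR1E, lay at 6.54, 7.76 and 7.15 TPM and at 2.70, 2.24 and 3.59 TPM, and fell by 1.10. It lay at 0.020 without a call after median-of-ratios scaling, at 0.53 with one after quantile normalization, and at -0.27 with one after GC-length correction. POLR1E itself was not called as deposited (-0.27, limma, adjusted p = 0.13), and was called lower without siVCPIP1 replicate 3 (-0.34, adjusted p = 0.018). It was called higher after median-of-ratios scaling (1.08), quantile normalization (0.45) and GC-length correction (1.07). POLR1H, the subunit for RNA cleavage, lay at 64.63, 64.82 and 68.34 TPM and at 88.07, 75.00 and 100.32 TPM. It rose by 0.40 without overlap (limma, adjusted p = 0.031), a call lost without any 1 siControl library or without siVCPIP1 replicate 1 (adjusted p from 0.052 to 0.10).

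Of the 9 subunits specific to RNA polymerase III, 6 fell and 1 rose, beside 66% and 15% of all genes tested. Their median change was -1.08, beside -1.12 for all genes. With median-of-ratios scaling 3 were lower and 4 higher, beside 42.7% and 42.3% of all genes. Quantile normalization gave 0 and 4, beside 38.8% and 42.2%, and GC-length correction 1 and 8, beside 31.7% and 37.2%. POLR3D, which pairs with POLR3E (chromosome 8, 22245104 to 22254600, plus strand, GRCh38), lay at 16.89, 15.86 and 15.65 TPM in siControl and at 28.13, 22.07 and 26.86 TPM in siVCPIP1. POLR3E lay at 16.98, 20.94 and 20.38 TPM and at 4.05, 3.80 and 9.21 TPM. The partners thus moved in opposite directions without overlap in either. POLR3D rose by 0.63 (SE 0.16, limma, adjusted p = 0.0064), and by 1.94, 1.76 and 2.04 under median-of-ratios scaling, quantile normalization and GC-length correction. POLR3E fell by 1.70 (SE 0.30, limma, adjusted p = 0.00069). It was also called lower after median-of-ratios scaling (-0.47) and after GC-length correction (-0.44). It had no call after quantile normalization (-0.25, limma, adjusted p = 0.17) or when the correction used a pseudocount of 0.1 TPM (-0.36, adjusted p = 0.080). POLR3G and POLR3F, of the subcomplex that opens DNA with POLR3C, lay at 7.01, 7.65 and 5.41 TPM and at 9.91, 11.25 and 10.22 TPM in siControl. In siVCPIP1 POLR3G lay at 0.91, 1.04 and 1.44 TPM and POLR3F at 2.95, 3.20 and 4.17 TPM. They fell by 1.85 and 1.38 without overlap, and both were called higher (0.43 and 0.99) after GC-length correction (limma, adjusted p = 0.0067 and 0.00038). POLR3GL, the alternative to POLR3G, fell by 0.89 from 64.1 ± 8.95 TPM to 34.8 ± 10.5 TPM (SD over 3 libraries), and was called higher after median-of-ratios scaling (0.46) and GC-length correction (0.40), and lay at -0.24 without a call after quantile normalization. POLR3A, the largest subunit, lay at 4.93, 4.97 and 5.32 TPM and at 3.59, 3.83 and 4.31 TPM. It did not overlap but was not called (-0.31, limma, adjusted p = 0.12), was called lower without siVCPIP1 replicate 3 (-0.37, adjusted p = 0.027), and was higher under the scalings and after correction (0.81, 1.26 and 1.08). POLR3C and POLR3K fell by 0.63 and 1.11, and POLR3C lost its call without siControl replicate 3 (-0.50, limma, adjusted p = 0.055). Both were called higher after GC-length correction (0.91 and 0.81).

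Ratios between genes within a library do not change when that library is scaled by a single factor, though they do under quantile normalization and GC-length correction. The log2 change of POLR1B lay below that of POLR1A as deposited (-1.48 and -0.85) and close to it after GC-length correction (0.20 and 0.23). POLR3B and POLR3A lay at -1.08 and -0.31 as deposited and at 0.91 and 1.08 after the correction. POLR2B and POLR2A lay at -3.60 and -0.96 as deposited and at -1.44 and -0.09 after it. When that correction used a pseudocount of 0.1 TPM, POLR1B and POLR1A lay at -0.16 and 0.44, and POLR3B and POLR3A at 0.68 and 1.41. POLR2B and POLR2A then lay at -1.92 and 0.07. The ratio of the second largest to the largest subunit gene was lower in siVCPIP1 in each polymerase. For RNA polymerase II, POLR2B to POLR2A was 0.557 to 0.722 in siControl and 0.0210 to 0.0836 in siVCPIP1. For RNA polymerase I, POLR1B to POLR1A was 0.519 to 0.584 and 0.182 to 0.266. For RNA polymerase III, POLR3B to POLR3A was 0.456 to 0.463 and 0.109 to 0.225, where POLR3B was chosen for this ratio after its values were seen. POLR3B lay at 2.25, 2.30 and 2.46 TPM in siControl and at 0.39, 0.44 and 0.97 TPM in siVCPIP1, and fell by 1.08. The siControl values lay close together in each enzyme, and every siVCPIP1 value was lower. The ratio of MED13 to MED12 was 0.979 to 1.24 and 0.154 to 0.282, and that of POLR2K to POLR2L 0.197 to 0.298 and 0.00778 to 0.0368. Each of the 5 ratios gave a two-sided exact permutation p of 0.1, the smallest that 3 libraries against 3 allow, and 0.1 after Benjamini-Hochberg adjustment over the 5. The pairs were set with their values known. In each pair the gene that fell more has the lower transcript GC content, such as 41.9% for POLR2B and 56.1% for POLR2A, and the part of GC content in these ratios was not tested.

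**Figure D3:**
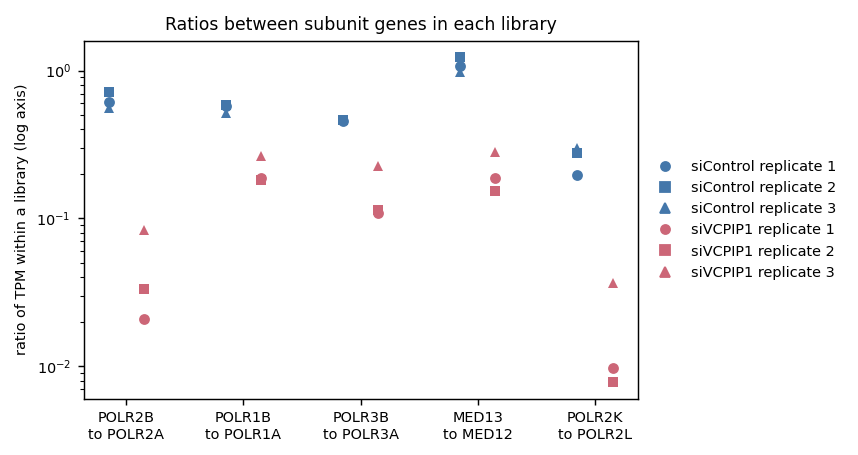
Ratio of TPM between pairs of subunit genes within each library, on a log axis, for 3 siControl (blue) and 3 siVCPIP1 (red) libraries. All siVCPIP1 ratios lie below all siControl ratios in the 5 pairs, and triangles of siVCPIP1 replicate 3 are the highest of the red points.

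The range of mean levels within an enzyme was wider in siVCPIP1, where the lowest gene of each lay under 1 TPM. The lowest siVCPIP1 means were 0.873 TPM for POLR2B, 0.183 TPM for POLR1F and 0.60 TPM for POLR3B. Such ranges were not computed over all genes, whose median TPM was also lower in siVCPIP1 (1.59 ± 0.58, beside 6.77 ± 0.63 in siControl, SD over 3 libraries). Among the genes specific to RNA polymerase II, mean TPM ran from 9.82 to 260.6 in siControl, a range of 26.5-fold, and over 290.4-fold in siVCPIP1. For the subunits specific to RNA polymerase I the range was 21.5-fold and 478.9-fold, and for those of RNA polymerase III 18.0-fold and 42.8-fold. The highest mean in siControl among all members was that of POLR2L at 351.0 ± 76.2 TPM, and the lowest was that of POLR3B at 2.34 ± 0.11 TPM (SD, n = 3 each). The median of the siControl means was 15.02 TPM over the Mediator genes and 29.04 TPM over the polymerase genes.

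The change of a member followed the GC content of its transcript. Across the 61 members the log2 change and GC content had a Pearson r of 0.79 (Spearman's rho 0.81), beside 0.72 (0.74) across 10916 genes tested. These are descriptions across genes that share the same libraries. All 19 members with a GC content under 45% fell, with a median of -1.93, beside 97.4% of all such genes and a median of -2.13. From 45% to 55%, 16 of 26 members fell and 2 rose (POLR1H and POLR3D), with a median of -0.67, beside 78.1% and 5.18% of all such genes and a median of -1.24. From 55% upward, 3 of 16 fell (MED9, MED26 and POLR2A) and 7 rose, with a median of 0.31, beside 26.7% and 37.2% of all such genes and a median of 0.14. The members called lower had a median GC content of 44.9%, those called higher 59.9% and those not called 54.2%. Transcript length had a weaker relation, with a Pearson r of -0.26 (Spearman's rho -0.34). After GC-length correction the r of the members with GC content was 0.00, that trend having been removed over all genes.

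**Figure D4:**
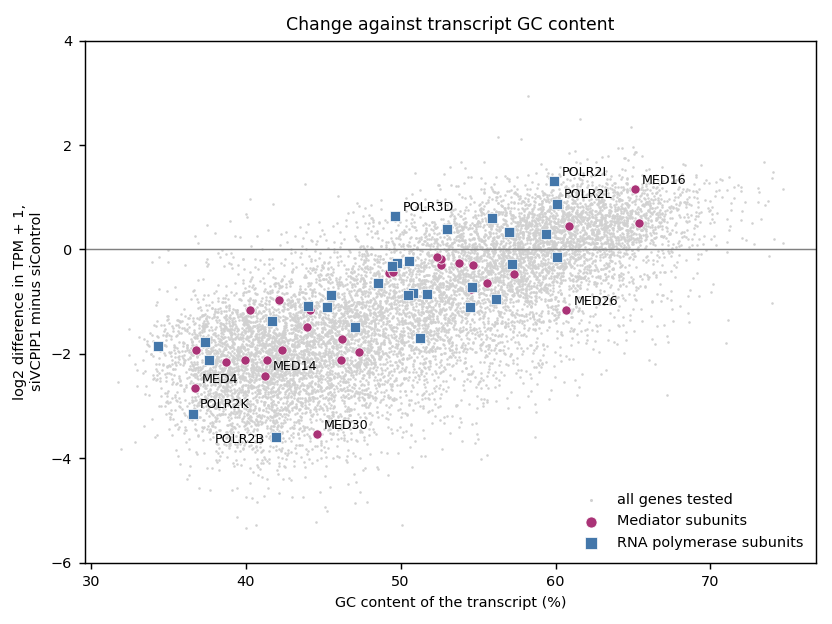
Log2 difference in TPM + 1 (siVCPIP1 minus siControl) against GC content of the transcript in percent, for all genes tested (grey) and the Mediator (purple circles) and polymerase (blue squares) members. Members with low GC content lie low and those with high GC content lie high, as in the grey cloud. POLR2B, the lowest member, lies at 41.9% and POLR2I, the highest, at 59.9%.

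**Figure D5:**
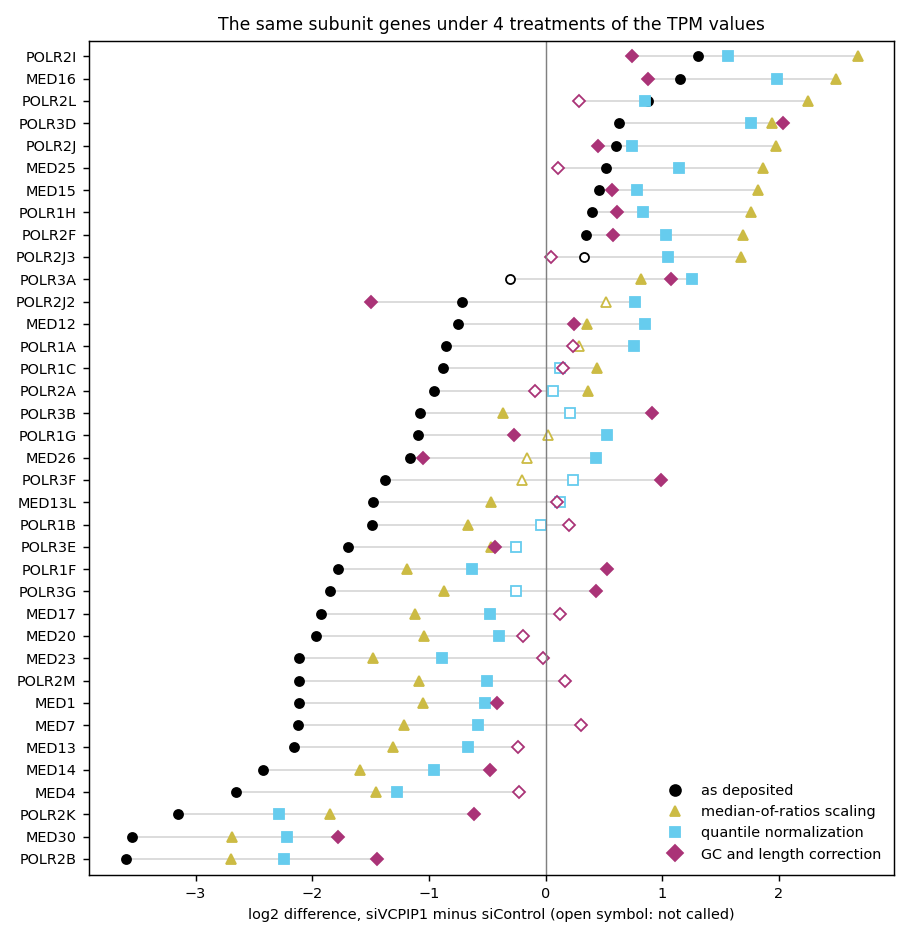
Log2 difference of the 37 members given library by library, under TPM as deposited (black), median-of-ratios scaling (yellow), quantile normalization (light blue) and GC-length correction (purple), with open symbols for changes not called. POLR2B, MED30, POLR2K, MED14 and MED1 stay left of 0 and called in all 4. MED4, MED13, MED20 and MED23 also stay left of 0 but are open after correction, and POLR3E does so but is open after quantile normalization. The 9 members that rose stay right of 0, with MED25 and POLR2L open after correction.

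Other genes of the transcription machinery were counted from lists that do not overlap the members. Of 92 such genes tested, 69 fell and 10 rose, beside 66% and 15% of all genes tested, with a median of -1.69 and a median GC content of 45.5%. With median-of-ratios scaling 54 were lower and 29 higher, beside 42.7% and 42.3% of all genes. With quantile normalization 51 and 24 were so, beside 38.8% and 42.2%, and with GC-length correction 32 and 33, beside 31.7% and 37.2%. Of 14 genes of TFIID, the complex that recognises core promoters, 12 fell and 2 rose. TAF9 fell from 95.8 ± 11.6 TPM to 6.22 ± 5.55 TPM, and TAF8 rose from 10.6 ± 1.39 TPM to 17.01 ± 1.37 TPM (SD over 3 libraries). Of 17 other general factors, 14 fell and 2 rose. MNAT1 and CCNH, which form the CDK-activating kinase of TFIIH with CDK7, fell by 3.35 and 3.26, while ERCC2, a TFIIH helicase, and GTF2F1, of TFIIF, rose by 0.51 and 0.51. All 4 kept these directions under both scalings and after GC-length correction. Of 24 pausing and elongation genes, 16 fell and NELFE rose (0.57). The elongation factor TCEA1 fell from 74.6 ± 9.56 to 3.83 ± 3.44 TPM. Of 7 factors of RNA polymerase I, 6 fell and 0 rose, and TAF1D fell by 3.18. Of 11 factors of RNA polymerase III, 6 fell and 3 rose, among them GTF3C5 (0.88) and MAF1, a repressor of the enzyme (0.62). Of 9 polymerase assembly genes, 6 fell and RUVBL2 rose (0.54), and GPN3 fell from 49.9 ± 6.28 to 2.97 ± 1.61 TPM. Of 6 genes of mitochondrial transcription, 5 fell, and the polymerase POLRMT rose from 51.3 ± 5.34 to 89.1 ± 6.55 TPM.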

How the data were processed

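RNA sequencing of 3 siControl and 3 siVCPIP1 libraries of AsPC-1 cells was used. The deposited table holds TPM per gene symbol, computed by the authors per the file headers and rounded to 2 decimals. The genome build was GRCh38.p13 per the submitters' processing notes, with aligner, counting tool, annotation, strand and filters each not given in the sources used here. Since TPM keeps no read depth, no counting interval is given. The 10966 genes whose mean reached 1 TPM were compared on log2(TPM + 1) by limma 3.58.1 (R 4.3.3, eBayes, trend, two-sided), Benjamini-Hochberg adjusted over all genes tested, threshold 0.05. Fold changes on this scale understate low genes. The fit was tested on simulated data.

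GC content and length came from 1 transcript per gene of GENCODE 29 (10916 of the genes tested, 99.5%), with the full-length transcript for POLR2A. The correction removed each library's spline trend (5 and 3 degrees of freedom, and their product). It has no term for expression level. Ratios were compared by exact permutation (scipy 1.17.1). Alternatives were median-of-ratios scaling, quantile normalization, this correction, a pseudocount of 0.1 TPM, no filter or a filter at 5 TPM, no trend, the replicate block and leaving out each library.

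Members, roles and lists were chosen with earlier results of these data known. Values by library are given for 35 members set by rule (in each role the 3 largest called falls and all rises, the largest polymerase subunits, paralog pairs) and for MED26 and POLR3B, added after their values were seen. From each other list at most 2 genes per direction are named. The values of 1 member are not reported here, and it is not drawn in the figures, while counts over members include it.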

Additional observations from a re-analysis of the deposited data

How the results depend on the processing

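Direction rested on the scaling. After median-of-ratios scaling 20 members were lower and 32 higher (median 0.41), with opposite sign for MED12 (0.35), POLR1A (0.28), POLR1C (0.44), POLR1G (0.020), POLR2A (0.36), POLR2J2 (0.52) and POLR3A (0.81). After quantile normalization 16 were lower and 31 higher (median 0.36), with opposite sign for MED12 (0.85), MED13L (0.13), MED26 (0.43), POLR1A (0.76), POLR1C (0.12), POLR1G (0.53), POLR2A (0.062), POLR2J2 (0.76), POLR3A (1.26), POLR3B (0.20) and POLR3F (0.23). After GC-length correction 10 were lower and 30 higher (median 0.29) and 32 genes of the other lists were lower. Opposite sign was then found for VCPIP1 itself (0.27), MED7 (0.30), MED12 (0.24), MED13L (0.10), MED17 (0.12), POLR1A (0.23), POLR1B (0.20), POLR1C (0.15), POLR1F (0.52), POLR2M (0.17), POLR3A (1.08), POLR3B (0.91), POLR3F (0.99) and POLR3G (0.43). With that correction and a pseudocount of 0.1 TPM, chosen after seeing the data, 9 were lower and 30 higher (median 0.37), 35 genes of the other lists were lower and VCPIP1 lay at -0.55. Opposite sign was found for MED4 (0.20), MED7 (0.12), MED12 (0.31), MED13L (0.37), POLR1A (0.44), POLR1C (0.25), POLR2A (0.069), POLR2M (0.52), POLR3A (1.41), POLR3B (0.68), POLR3F (1.34) and POLR3G (0.82). The cause was not tested. A filter at 5 TPM left 22 members lower and 10 higher (median -0.44), since fewer low genes were tested. Of the 24 members not given library by library, 19, 16, 18 and 19 changed sign under these 2 scalings and 2 corrections, and 0 with a pseudocount of 0.1 TPM alone.

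Leaving out each library in turn gave 34 to 46 members lower, 5 to 11 higher (5 without siVCPIP1 replicate 1), a median of -0.99 to -0.74, 68 to 72 genes of the other lists lower, and -1.78 to -1.62 for VCPIP1. Deviations of same-numbered libraries correlated at 0.53, -0.27 and 0.16, so the numbers were not taken as pairs. With replicate number as a block 37 members were lower and 9 higher. With the block and the GC-length correction 10 were lower and 29 higher, with the same changes as in the corrected fit without the block. There MED12 and POLR1G lost the call they had after the correction (limma, adjusted p = 0.079 and 0.067). Read depth is unknown, and means under 1 TPM in siVCPIP1 limit the precision of the largest falls.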
